A study of Mus musculus with 12 samples.

Results

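Telomerase adds telomeric repeats to chromosome ends, and the genes of its protein subunits and assembly factors were followed here in mouse embryonic stem (ES) cells that lack its RNA, in wild-type ES cells, and in the differentiating cultures of both. The 9 genes are Tert, Dkc1, Nhp2, Nop10, Gar1, Naf1, Wrap53, Ruvbl1 and Ruvbl2. They were chosen by name, as every probe set whose annotation carries the symbol of a member alone, which gave 15 of the 45037 probe sets tested. Of all probe sets, 34945 carry a single gene symbol, for 18193 genes. At day 15 of differentiation, 8 of the 15 probe sets were higher in Terc-/- than in wild-type cells, those of Tert, Dkc1, Nhp2, Gar1, Naf1 and Wrap53, by 1.47-fold to 2.54-fold, against 6.45% of all probe sets higher, while both probe sets of Nop10 were level between genotypes.

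The telomerase RNA, Terc, serves as template, and Tert is the reverse transcriptase that copies it. Terc ends in an H/ACA domain, the fold it shares with the small nucleolar RNAs that guide pseudouridylation, and it is bound by the same proteins as those RNAs: dyskerin (Dkc1), Nhp2, Nop10 and Gar1, with Naf1 holding the place of Gar1 during assembly. In human cells WRAP53 carries the finished complex to Cajal bodies and telomeres, and the ATPases RUVBL1 and RUVBL2 take part in its assembly. In ES cells telomerase is active, and Tert is turned down as cells differentiate.

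The 12 arrays hold 2 samples for each of 6 groups. At day 0 they hold undifferentiated Terc-/- (KO) ES cells of lines F35 and A49 at passage 11, which the labels place in generation G3/4, and wild-type (WT) ES cells of lines N12 and N33 at passage 12. At days 8 and 15 they hold KO and WT cells after growth as hanging-drop embryoid bodies without LIF for 4 days and plating, and their labels name no line, so that p-values measure only the spread between these samples. All are of C57BL/6 background, each day 0 sample is a line of its own, and the ES cells were kept on mouse embryonic fibroblasts, whose RNA a sample can hold.

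The values are the authors' scaled linear intensities, relative units of brightness per probe set, and since arrays carry no read depth, precision is limited by their number. Median intensities were 114 to 117 on the 4 day 0 arrays and 50.6 to 53.1 on the other 8. The highest values were 20085 to 20573 at day 0 and 21368 to 22080 on the others, so the arrays differ by more than a scale factor. Levels at day 0 were therefore set against those of later days by the percentile of a probe set within its own array. In 1 added comparison they were set by how far the change from day 0 differed between genotypes. There a constant factor shared by both cancels, while a difference that varies with intensity need not. Terc has no probe set of its own symbol alone and was not analysed here, so the genotype rests on the labels. Undifferentiated cells carried the 14 pluripotency genes of a chosen list at a summed intensity of 76551 to 80302 in KO and 74080 to 74606 in WT ES cells. With the day 0 arrays on a scale of their own, these sums give no check of the undifferentiated state. Differences are on the log2 scale as KO minus WT, or day 15 minus day 8, from a limma fit over all 12 arrays, with Benjamini-Hochberg adjustment across the 45037 probe sets and a call at an adjusted p under 0.05. Where a bulk sample shows less of a transcript, fewer cells of a type and less RNA per cell cannot be told apart.

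The promoters of 4 members are shown because their genes differed in how they moved: Tert, Dkc1 and Nhp2 were higher in KO cells at day 15, and Nop10 was not. Each line gives the 250 bases before the RefSeq start in GRCm38.p6, read in the direction of the gene, with capitals for matches on either strand to 4 motifs, the E-box CACGTG, the GC box GGGCGG, the CCAAT box CCAAT and the ETS core CGGAAGT.
Tert promoter, chr13:73626661-73626910, plus strand: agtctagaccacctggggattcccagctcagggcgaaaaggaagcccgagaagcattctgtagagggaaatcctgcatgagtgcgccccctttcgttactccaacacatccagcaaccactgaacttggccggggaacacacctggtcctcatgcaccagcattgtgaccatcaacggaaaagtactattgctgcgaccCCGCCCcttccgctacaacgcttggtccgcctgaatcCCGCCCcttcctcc
Dkc1 promoter, chrX:75095604-75095853, plus strand: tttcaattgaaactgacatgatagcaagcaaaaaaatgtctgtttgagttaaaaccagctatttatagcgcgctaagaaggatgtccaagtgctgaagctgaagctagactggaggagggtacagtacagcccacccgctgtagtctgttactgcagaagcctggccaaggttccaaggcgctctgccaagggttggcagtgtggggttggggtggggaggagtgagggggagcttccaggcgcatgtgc
Nhp2 promoter, chr11:51619523-51619772, plus strand: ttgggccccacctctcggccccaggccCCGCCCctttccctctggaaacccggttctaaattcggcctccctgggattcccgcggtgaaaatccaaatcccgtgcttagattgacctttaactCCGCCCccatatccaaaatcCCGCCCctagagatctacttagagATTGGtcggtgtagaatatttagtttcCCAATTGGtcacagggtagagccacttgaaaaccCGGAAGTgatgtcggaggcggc
Nop10 promoter, chr2:112261676-112261925, plus strand: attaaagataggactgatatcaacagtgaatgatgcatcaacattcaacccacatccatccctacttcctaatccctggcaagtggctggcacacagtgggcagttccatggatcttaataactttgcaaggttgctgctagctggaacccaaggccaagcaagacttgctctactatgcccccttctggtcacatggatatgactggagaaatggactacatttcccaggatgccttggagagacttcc

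The Tert window holds 2 GC boxes and the Nhp2 window holds 3 GC boxes, 3 CCAAT boxes, 2 of which overlap, and an ETS core. The Dkc1 and Nop10 windows hold none of the 4 motifs. The table holds 9 windows for 8 of the 9 members, with 2 starts for Wrap53 and no entry for Naf1. Of these 9 windows, 3 hold a GC box, 4 a CCAAT box, 3 an ETS core and 1, a Wrap53 start, an E-box. Over all 32851 windows of the same length, the shares with the motif are 32.7% for the GC box, 33.8% for the CCAAT box, 4.92% for the ETS core and 6.02% for the E-box. A match of letters is a description of the window and shows no binding.

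Tert, the catalytic subunit, was read by 2 probe sets. On the brighter, 1456941_at, the intensities at day 15 were 103 and 98.3 in KO cells, against 58.1 and 60.6 in WT cells. Both KO samples lay above both WT samples, with a ratio of means of 1.69 and a log2 difference of 0.76 ± 0.18 (SE, limma, adjusted p = 0.0203). At day 8 the intensities were 140 and 114 in KO cells, against 100 and 67.5 in WT cells. Here too the groups did not overlap, yet the log2 difference of 0.62 (95% interval 0.21 to 1.02) did not pass (adjusted p = 0.148). At day 0 the KO lines read 362 and 375 and the WT lines 309 and 374, a log2 difference of 0.11 (95% interval -0.29 to 0.52). The day 15 call was lost without any single KO or WT sample of that day, with an adjusted p of up to 0.133. The second probe set, 1450254_at, was dim at days 8 and 15, at 22.9 to 34.9 in KO cells and 19.0 to 28.3 in WT cells, near the lower quartile of an array, which lies at 19.1 to 20.7 on those days. Its log2 difference at day 15 was 0.29 (95% interval -0.18 to 0.75, adjusted p = 0.447).

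Dkc1 encodes dyskerin, the pseudouridine synthase that binds the H/ACA fold, and 1 of its 3 probe sets gave the largest day 15 difference among the 15. On 1438016_at the day 15 intensities were 1993 and 1818 in KO cells, against 843 and 1021 in WT cells. The groups stood apart by 2.04-fold, a log2 difference of 1.04 ± 0.16 (SE, adjusted p = 0.00221), and the call held without any single sample of that day. On 1441788_s_at, whose suffix marks probes shared between several transcripts, the intensities were 729 and 506 in KO cells, against 209 and 278 in WT cells. This was a 2.54-fold difference (log2 1.33 ± 0.23, adjusted p = 0.00485), and it missed the threshold without KO replicate 1, the higher of the 2 (adjusted p = 0.0604).

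On 1438015_at the day 15 intensities were 684 and 728 in KO cells, against 470 and 475 in WT cells. The groups did not overlap, but the difference did not pass (log2 0.58, 95% interval -0.06 to 1.22, adjusted p = 0.234). The same probe set was the member lowest in KO ES cells at day 0, with 1325 and 1211 in KO lines against 1920 and 2134 in WT lines. That log2 difference of -0.68 (95% interval -1.31 to -0.04) did not pass either (adjusted p = 0.543), and the other 2 probe sets of Dkc1 stood at -0.06 and 0.15 at day 0.

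Nhp2 encodes a core protein of the H/ACA particle, and both of its probe sets were higher in KO cells at day 15. On 1416606_s_at, whose suffix also marks probes shared between several transcripts, the intensities were 5073 and 4644 in KO cells, against 1995 and 2545 in WT cells. The ratio of means was 2.14 and the log2 difference 1.11 ± 0.13 (SE), with the lowest adjusted p among the 15 (0.000425). On 1416605_at the intensities were 1424 and 1379.95 in KO cells, against 614 and 837 in WT cells, a 1.93-fold difference (log2 0.97 ± 0.17, adjusted p = 0.00381). Neither call was lost without any single day 15 sample, the highest adjusted p being 0.0123 and 0.0481. At day 0 the 4 lines were close, at 7472 and 7298 in KO and 7615 and 7261 in WT on the brighter probe set.

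Nop10, the smallest protein of the same core, did not take part in this difference. On 1423210_a_at the day 15 intensities were 6168 and 5692 in KO cells, against 5953 and 5881 in WT cells. The WT pair lay within the KO pair, and the log2 difference was 0.00 with a 95% interval of -0.26 to 0.27. That upper bound lies below the differences measured on both Nhp2 and all 3 Dkc1 probe sets. The interval of Dkc1 1438015_at, -0.06 to 1.22, still overlaps that of Nop10, and no difference between genes was tested. On 1423211_at the intensities were 2504 and 2509 in KO cells, against 2343 and 2556 in WT cells (log2 0.03, 95% interval -0.35 to 0.42). Neither probe set passed in any comparison fitted on all 12 arrays. Without WT day 8 replicate 2, the lower sample of that day, both were lower at day 15 than at day 8 in WT cells (log2 -0.32 and -0.54, adjusted p = 0.00739 and 0.00145).

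Gar1 and Naf1 occupy the same place on dyskerin in turn, Naf1 during assembly and Gar1 in the finished particle, and both were higher in KO cells at day 15 by a similar margin. Gar1 was read only by 1418305_s_at, a probe set with the suffix for probes shared between several transcripts. It stood at 1160 and 1138 in KO cells, against 639.8 and 783 in WT cells, a 1.62-fold difference (log2 0.70 ± 0.19, adjusted p = 0.0352). Naf1 stood at 1051 and 1041 in KO cells, against 579 and 736 in WT cells, a 1.59-fold difference (log2 0.68 ± 0.20, adjusted p = 0.0442). For each gene the 2 KO samples agreed closely and the WT samples were spread more widely below them. Both calls were lost without WT replicate 1, KO replicate 1 or KO replicate 2, with adjusted p-values of up to 0.212 for Gar1 and 0.258 for Naf1. The Naf1 call was also lost with an offset of 32 on the log scale and without the trend and robust moderation of the fit.

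Wrap53 shares its locus with Trp53, which starts head to head with it on the opposite strand and has no probe set of its own symbol alone, so Trp53 was not analysed here. On 1423808_at Wrap53 stood at 119 and 136 in KO cells, against 87.7 and 85.7 in WT cells at day 15, a 1.47-fold difference (log2 0.55 ± 0.13, adjusted p = 0.0163). The groups did not overlap, and the call was lost without WT replicate 1, WT replicate 2 or KO replicate 2, and with the 4 arrays of that day fitted alone (adjusted p of up to 0.0987). The second probe set, 1456724_x_at, is of the type whose probes can bind other transcripts. It read 58.2 and 58.1 in KO cells, against 51.0 and 38.9 in WT cells (log2 0.39, adjusted p = 0.110). Its percentile within the array was 79.8 in KO and 76.7 in WT ES cells at day 0 but 52.4 in KO and 46.0 in WT cells at day 15, a shift that the other Wrap53 probe set did not show at that size.

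Ruvbl1 and Ruvbl2 encode a pair of related ATPases that also serve chromatin remodelling complexes and chaperone assemblies besides telomerase. At day 15 Ruvbl1 stood at 569 and 559 in KO cells, against 377 and 433 in WT cells, and Ruvbl2 at 1945 and 1661 in KO cells, against 1129.9 and 1256 in WT cells. For both genes the KO samples lay above the WT samples, by 1.39-fold and 1.51-fold. Neither passed over all probe sets, with log2 0.48 (95% interval 0.13 to 0.83, adjusted p = 0.0746) for Ruvbl1 and log2 0.59 (95% interval 0.14 to 1.05, adjusted p = 0.0881) for Ruvbl2.

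**Figure D1:**
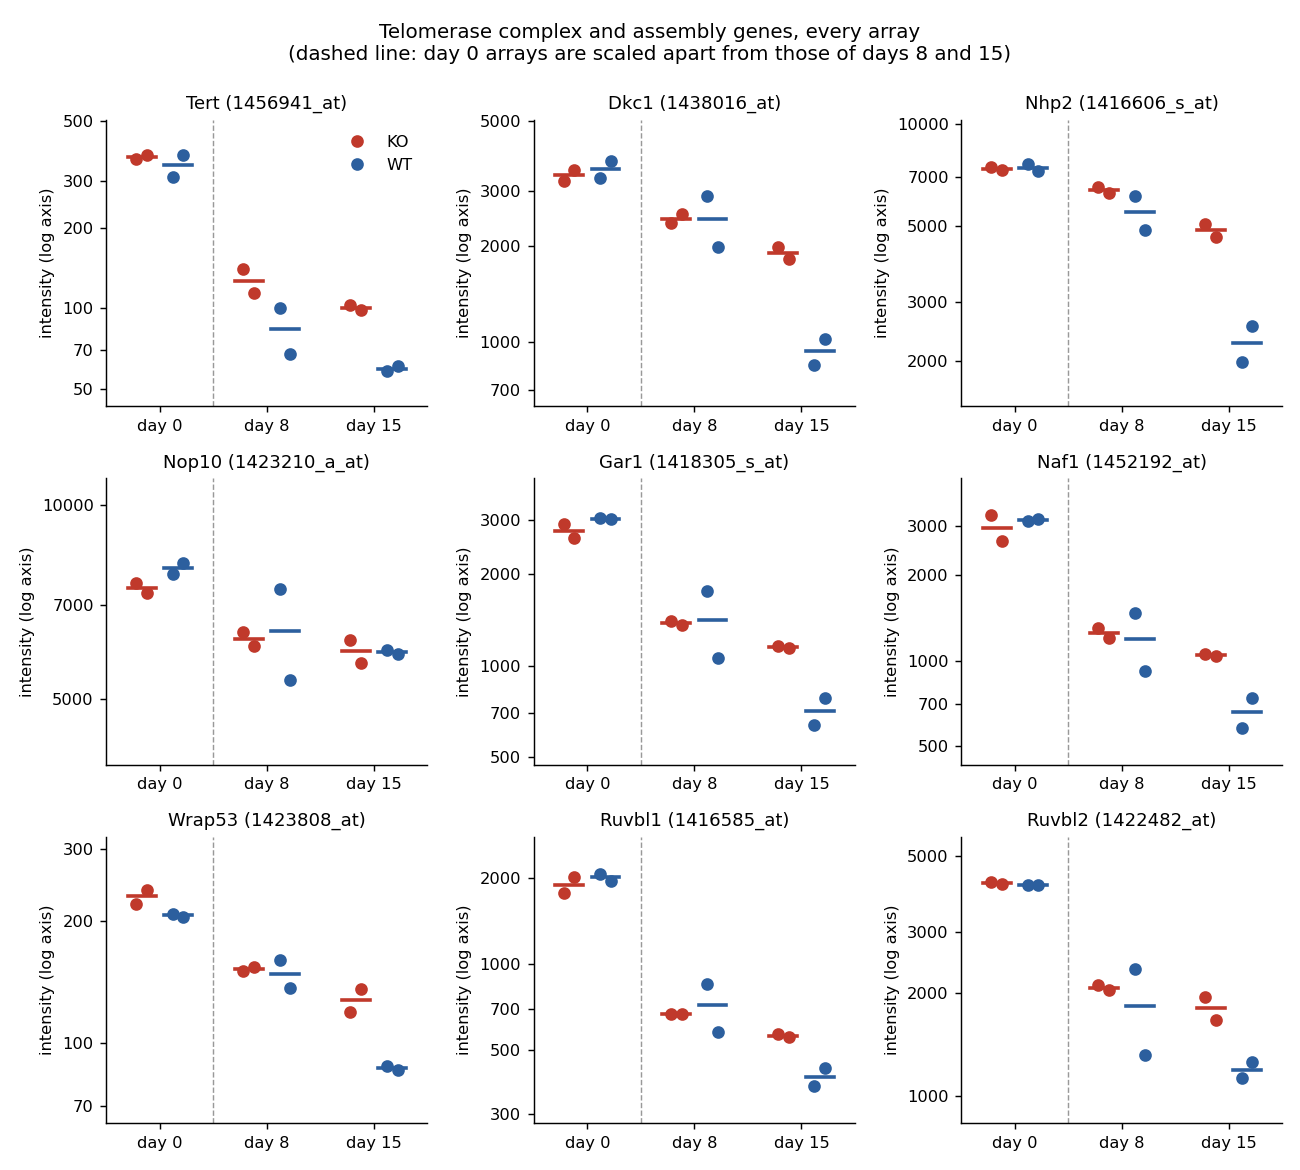
Intensity of the 9 genes on every array (log axis, relative units), each read from its brightest probe set, with KO samples left of WT samples at days 0, 8 and 15; points are arrays and bars are means of 2. At day 15 the KO points lie above the WT points for every gene shown but Nop10, and at day 8 the 2 WT points are far apart for most genes.

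Counted over the 15 probe sets, KO cells were higher than WT cells on 8 and lower on 0 at day 15, against a background of 6.45% of all probe sets higher and 6.45% lower. All 15 differences were above 0, with a median of 0.59 on the log2 scale, and the median over all probe sets was 0.04. On 12 of the 15 both KO samples lay above both WT samples, which held for 30.8% of all probe sets. The authors' threshold of a 1.8-fold ratio of means was passed by 4, the 2 of Nhp2 and 2 of Dkc1, against 2.29% of all probe sets. Read once per gene from the brightest probe set, 6 of 9 genes were higher, against 8.77% of genes. The count of 8 was 5 without WT replicate 1, 6 without WT replicate 2 and 4 without either KO sample of day 15, and under these settings 838 to 2979 of all probe sets were higher. Probe sets of a gene share its transcript, so the 15 are not independent readings. On the same arrays all 14 pluripotency genes were higher and 7 of 11 fibroblast genes lower in KO cells.

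At days 0 and 8 no member passed. At day 0, 0.0222% of all probe sets were higher and 0.0266% lower. The 15 member differences of that day ran between -0.68 and 0.32, with a median of -0.04. Fibroblast genes on the day 0 arrays summed to 6051 to 9465 in KO and 3313 to 5658 in WT lines. All 11 were higher in KO lines, with a median log2 difference of 0.93, and 0 passed. Their part in the member differences of day 0 and in the added comparison with day 0 was not tested. At day 8, 0.513% of all were higher and 0.615% lower, and the member differences ran between -0.08 and 0.62 with a median of 0.04. The adjusted p-values began at 0.543 at day 0 and at 0.148 at day 8.

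**Figure D2:**
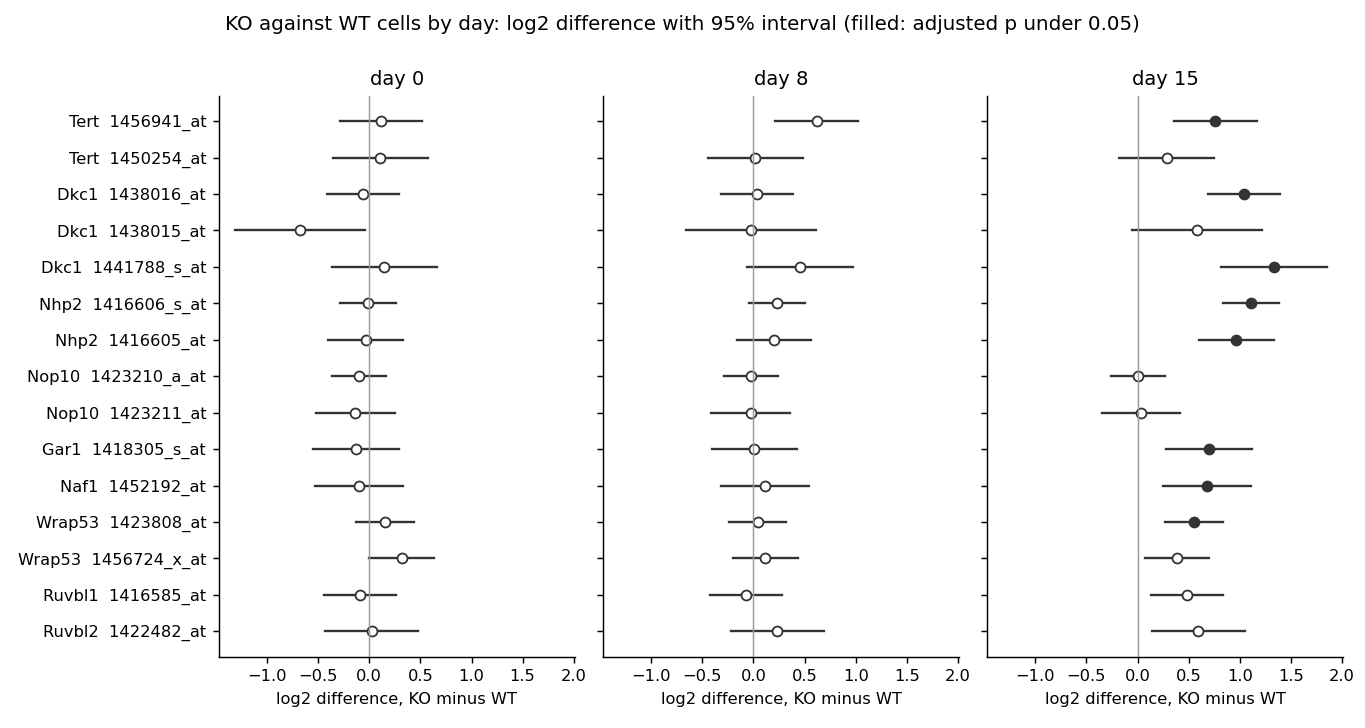
Log2 difference of KO minus WT cells for the 15 probe sets at days 0, 8 and 15, with 95% intervals from the limma fit (n = 2 per group); filled points passed an adjusted p of 0.05. Filled points appear at day 15, 8 of 15, and the Nop10 probe sets lie at 0.00 and 0.03 there.

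Between days 8 and 15 the same genes were set against themselves within each genotype. In KO cells 0 of 15 probe sets passed by limma, against 0.00222% of all probe sets lower and 0.0178% higher. In WT cells 10 of the 15 were lower at day 15 than at day 8 and 0 were higher, against 9.16% of all probe sets lower and 6.89% higher. These 10 belong to Dkc1, Nhp2, Gar1, Naf1, Wrap53 and Ruvbl1, and this comparison shares its WT samples of day 15 with that of KO and WT cells. The median log2 change was -0.26 in KO and -0.81 in WT cells. These counts depend on the arrays in the fit. With the 4 arrays of a genotype fitted alone, 4 of the 15 were lower in KO cells, 2 of Dkc1 and 2 of Nhp2, where 617 of all 45037 probe sets were lower, and 0 were lower in WT cells, where 102 of all were. Without WT day 8 replicate 2, 14 of the 15 were lower in WT cells, where 5316 of all probe sets were lower.

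For Nhp2 1416606_s_at the intensities in KO cells were 6543 and 6275 at day 8 and 5073 and 4644 at day 15, a log2 change of -0.40 (adjusted p = 0.295), and in WT cells they were 6146 and 4869.7 at day 8 and 1995 and 2545 at day 15, a log2 change of -1.28 (adjusted p = 0.000183). Day 15 thus held 75.8% of the day 8 mean in KO cells and 41.2% in WT cells. For Dkc1 1438016_at the KO cells read 2363 and 2537 at day 8 and the WT cells 2893 and 1987, and the log2 change to day 15 was -0.36 in KO (adjusted p = 0.446) and -1.37 in WT cells (adjusted p = 0.000442). The other 2 probe sets of Dkc1 changed by -0.77 and -0.51 in KO cells without passing, and by -1.37 and -1.39 in WT cells (adjusted p = 0.00995 and 0.0032).

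Gar1 changed by -0.26 in KO (adjusted p = 0.679) and -0.95 in WT cells (adjusted p = 0.00698), and Naf1 by -0.26 in KO (adjusted p = 0.690) and -0.83 in WT cells (adjusted p = 0.0158). Wrap53 1423808_at changed by -0.26 in KO (adjusted p = 0.501) and -0.77 in WT cells (adjusted p = 0.00257), and Ruvbl1 by -0.25 in KO (adjusted p = 0.628) and -0.81 in WT cells (adjusted p = 0.00635). These 4 genes held 83.4% to 84.3% of their day 8 mean in KO cells and 50.4% to 58.6% in WT cells. Tert 1456941_at changed by -0.33 in KO (adjusted p = 0.559) and -0.47 in WT cells (adjusted p = 0.114), and Ruvbl2 by -0.20 in KO (adjusted p = 0.783) and -0.56 in WT cells (adjusted p = 0.0932), none of which passed. Nop10 changed by -0.06 and -0.13 in KO and by -0.09 and -0.19 in WT cells.

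The interaction, the difference between these changes, passed by limma on 0 of the 15, against 0.138% of all probe sets higher and 0.284% lower. It was 0.88 for Nhp2 1416606_s_at (95% interval 0.49 to 1.27, adjusted p = 0.0659), 1.01 for Dkc1 1438016_at (95% interval 0.51 to 1.50, adjusted p = 0.101) and 0.02 for Nop10 1423210_a_at. The absence of calls in KO cells and the calls in WT cells are therefore not shown to differ between genotypes. Without WT day 8 replicate 2 the count was 9, where 1026 of all 45037 probe sets were higher, and without WT day 15 replicate 2 it was 3, where 522 of all were higher. The change from day 0 to day 15, a comparison chosen after seeing the data, differed between genotypes on 3 probe sets, all higher in KO cells, against 1.89% of all probe sets higher and 2.49% lower. These were Dkc1 1438016_at (1.10, adjusted p = 0.0233) and Nhp2 1416606_s_at and 1416605_at (1.12 and 1.00, adjusted p = 0.00779 and 0.0378). Each of these calls was lost under at least 1 fit that left a sample out. Over the limma settings the differences ran from 0.96 to 1.24 for Dkc1, and from 0.94 to 1.29 and 0.78 to 1.23 for Nhp2.

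**Figure D3:**
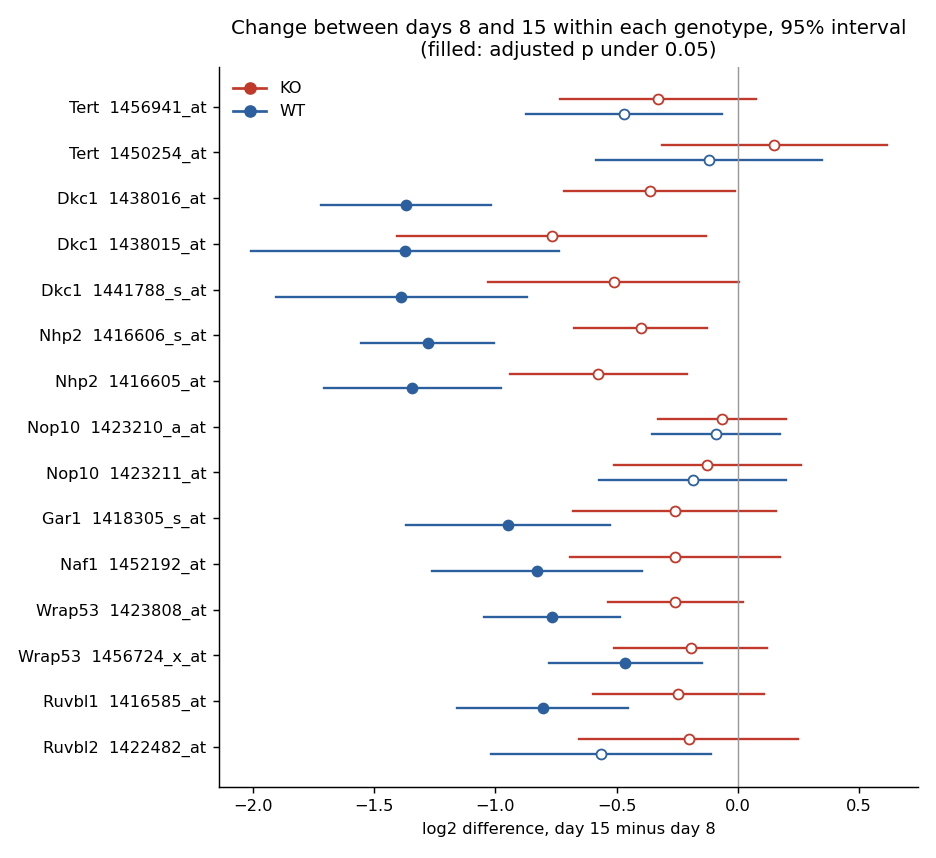
Log2 change between days 8 and 15 for the 15 probe sets, KO cells (red) above WT cells (blue), with 95% intervals from the limma fit; filled points passed an adjusted p of 0.05. In KO cells 0 of 15 passed and in WT cells 10 did, while the intervals of the 2 genotypes overlap for most probe sets.

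The 2 WT samples of day 8 stood apart from each other on these genes. Replicate 1 was higher than replicate 2 on 15 of 15 probe sets, by a median log2 difference of 0.56 and up to 1.18, on Dkc1 1438015_at with 1843 and 811. Over all probe sets replicate 1 was higher on 51.4%. In the 2 KO samples of that day the median difference was 0.06. The same WT pair differed in fibroblast markers, whose 11 measured genes summed to 6819.95 and 26342 on the 2 arrays, with replicate 2 higher on 9 of 11, and in proliferation genes, with replicate 1 higher on 13 of 13 by a median of 0.45. Their part in the day 8 values was not tested. Without WT day 8 replicate 1, the KO minus WT difference at day 8 passed on 3 member probe sets, all higher, Dkc1 1438015_at among them at 0.57 (adjusted p = 0.0213), and without replicate 2 it passed on 1, which was lower. Of all 45037 probe sets, 1051 were higher under the setting without replicate 1 and 237 lower under that without replicate 2.

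Against day 0, the brightest probe set of each gene had a place within its array, given here as a description with no test. A percentile moves little near its upper end: for Nhp2 1416606_s_at in WT cells a quantile-normalized log2 change of -1.16 went with a percentile change of -1.80. The mean percentile of Dkc1 1438016_at was 96.9 at day 0, 97.4 at day 8 and 96.7 at day 15 in KO cells, and 97.0, 97.3 and 93.0 at the same days in WT cells. Tert 1456941_at, the gene with the largest move, stood at 76.3, 68.0 and 63.9 at days 0, 8 and 15 in KO cells, and at 75.1, 59.8 and 52.9 in WT cells. Between days 0 and 15 its percentile changed by -12.4 in KO and -22.2 in WT cells. For Wrap53 1423808_at the change was 0.47 in KO and -5.10 in WT cells, for Ruvbl1 it was -4.88 in KO and -9.27 in WT cells, and for Naf1 -2.37 in KO and -6.42 in WT cells. On the quantile-normalized log2 scale Ruvbl1 changed by -0.90 and Naf1 by -0.68 in KO cells, and by -1.50 and -1.49 in WT cells. The quantile-normalized change of Nop10 was 0.12 in KO and 0.00 in WT cells, at a percentile between 99.1 and 99.2 at all 3 days.

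Over the 8 arrays of days 8 and 15 the brightest probe sets of the 9 genes followed each other, as a description across arrays that share groups and scaling. Pearson correlations of log2 intensity between members other than Nop10 ran between 0.754, for Tert with Ruvbl1, and 0.993, for Gar1 with Naf1. Those of Nop10 with the others ran between 0.348, with Nhp2, and 0.695, with Ruvbl2. Among 11566 genes, the 5 most like Tert over these arrays were Mak, Chka, Parp1, Lgr5 and Rest, with correlations of 0.988 to 0.993. The 5 most like Dkc1 were Gart, Rrs1, Pum3, Ebna1bp2 and Ints13, with correlations of 0.994 to 0.997.

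Partner genes were read at day 15 from lists chosen with earlier results of these data known. Their counts are therefore a description and give no independent support. Over all genes, 8.77% were higher and 8.31% lower in KO cells. A list of H/ACA assembly and telomerase RNA maturation, RNA-modifying enzymes included, held 13 genes with a median log2 difference of 0.30. Of these, 3 were higher in KO cells and 0 lower. They were Nolc1, a chaperone of nucleolar particles (0.77, adjusted p = 0.0323), Nat10, an RNA acetyltransferase (0.54, adjusted p = 0.0426), and Pus10, a pseudouridine synthase (0.53, adjusted p = 0.0287). Shq1, the chaperone that holds newly made dyskerin, stood at 116 ± 4.00 in KO and 87.7 ± 14.8 in WT cells (SD, n = 2), with a log2 difference of 0.42 that did not pass (adjusted p = 0.122). It was lower at day 15 than at day 8 in WT cells (-0.71, adjusted p = 0.0126).

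The box C/D particle, which guides RNA methylation in the nucleolus, and other nucleolar genes made up a list with 7 of 11 higher in KO cells and 0 lower and a median of 0.65. Among them were Wdr12 (0.80, adjusted p = 0.0126) and Bop1 (0.73, adjusted p = 0.0173), which act in ribosome assembly, and Nop56 (0.65, adjusted p = 0.0290), a core protein of the particle. In KO cells 0 of the 11 were lower at day 15 than at day 8, against 0% of all genes, and in WT cells 9 were, against 11.3%. Polr1b, a subunit of RNA polymerase I, was among these 9 (-1.06, adjusted p = 0.0143).

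The TRiC chaperonin, which folds WRAP53 in human cells, was higher in KO cells on 7 of its 8 subunits, with a median of 0.37. The largest differences were those of Cct6a, at 5118 ± 130.3 in KO and 3548 ± 498 in WT cells (SD, n = 2, log2 0.54, adjusted p = 0.00317), and Cct8, at 3446 ± 50.8 in KO and 2406 ± 504 in WT cells (log2 0.53, adjusted p = 0.0226). Of the R2TP and TTT chaperone partners of Ruvbl1 and Ruvbl2, 0 of 8 passed by limma, with a median of 0.29. Hsp90aa1 lay nearest at 0.42 (adjusted p = 0.0514). Of the chromatin partners of Ruvbl1 and Ruvbl2 in the INO80, SRCAP and TIP60 complexes, 2 of 12 were higher, with a median of 0.08. These were Actl6a (0.57, adjusted p = 0.0252) and Ino80c (0.50, adjusted p = 0.0397).

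Among 12 genes known to regulate Tert transcription, 1 was higher and 1 lower in KO cells at day 15, with a median of 0.05. Mycn stood at 882 ± 46.7 in KO and 598 ± 2.56 in WT cells (SD, n = 2, log2 0.56, adjusted p = 0.0112). Myc, an activator of Tert that binds E-boxes, stood at 91.1 ± 1.92 in KO and 79.8 ± 5.31 in WT cells (log2 0.19, adjusted p = 0.426) and was lower in KO cells at day 8, at 138 ± 13.9 in KO and 222 ± 8.93 in WT cells (log2 -0.69, adjusted p = 0.0403). Between days 8 and 15 Myc changed by -0.60 in KO (adjusted p = 0.193) and -1.48 in WT cells (adjusted p = 0.00013). Wt1, a zinc finger factor described as a repressor of TERT in human cells, was lower in KO cells at 53.9 ± 14.8, against 247 ± 154 in WT cells (log2 -2.06, adjusted p = 0.0106). Of 13 genes that act on telomerase at the telomere, 3 were higher and 0 lower, Smg5 (0.60, adjusted p = 0.00633), Ctc1 (0.49, adjusted p = 0.0310) and Hnrnpa1 (0.48, adjusted p = 0.0250), with a median of 0.04.

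At day 15 the genotypes were set side by side on cell type markers too. All 14 pluripotency genes were higher in KO cells at day 15, with a median of 2.27, and their summed intensity was 22991 to 24659 in KO and 3727 to 9855 in WT cells. Pou5f1 stood at 2084 ± 248 in KO and 194 ± 122 in WT cells (SD, n = 2, log2 3.58, adjusted p = 0.000895). Proliferation genes passed on 1 of 13, Mcm5 (0.54, adjusted p = 0.0446), with a median of 0.22 and sums of 24364 to 24949 in KO and 21546 to 22014 in WT cells. Fibroblast genes were lower in KO cells on 7 of 11, with a median of -2.01 and sums of 10765 to 15622 in KO and 56119 to 74118 in WT cells.

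Blood genes were lower on 6 of 9, with sums of 438 to 442 in KO and 2427 to 4029 in WT cells, and endoderm genes on 6 of 10, with sums of 5899.99 to 7039.95 in KO and 13845 to 27229.6 in WT cells. Neural genes were higher on 4 of 9 and lower on 1, with sums of 3263 to 3992 in KO and 794 to 855 in WT cells. Most of that sum came from Stmn2, with means of 2210 in KO and 175 in WT cells, and Olig1, with 621 in KO and 42.3 in WT cells. Both genes were bright in undifferentiated ES cells as well, with day 0 means of 5314 in KO and 4872 in WT lines for Stmn2 and of 1464 in KO and 1615 in WT lines for Olig1. The WT samples of day 15 also differed from each other. Replicate 1 was lower than replicate 2 on 13 of 14 pluripotency genes and on 12 of the 15 member probe sets. The medians were 1.29 and 0.20 on the log2 scale, and over all probe sets replicate 1 was higher on 52.3%. The part of cell type in the members' differences was not tested.

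**Figure D4:**
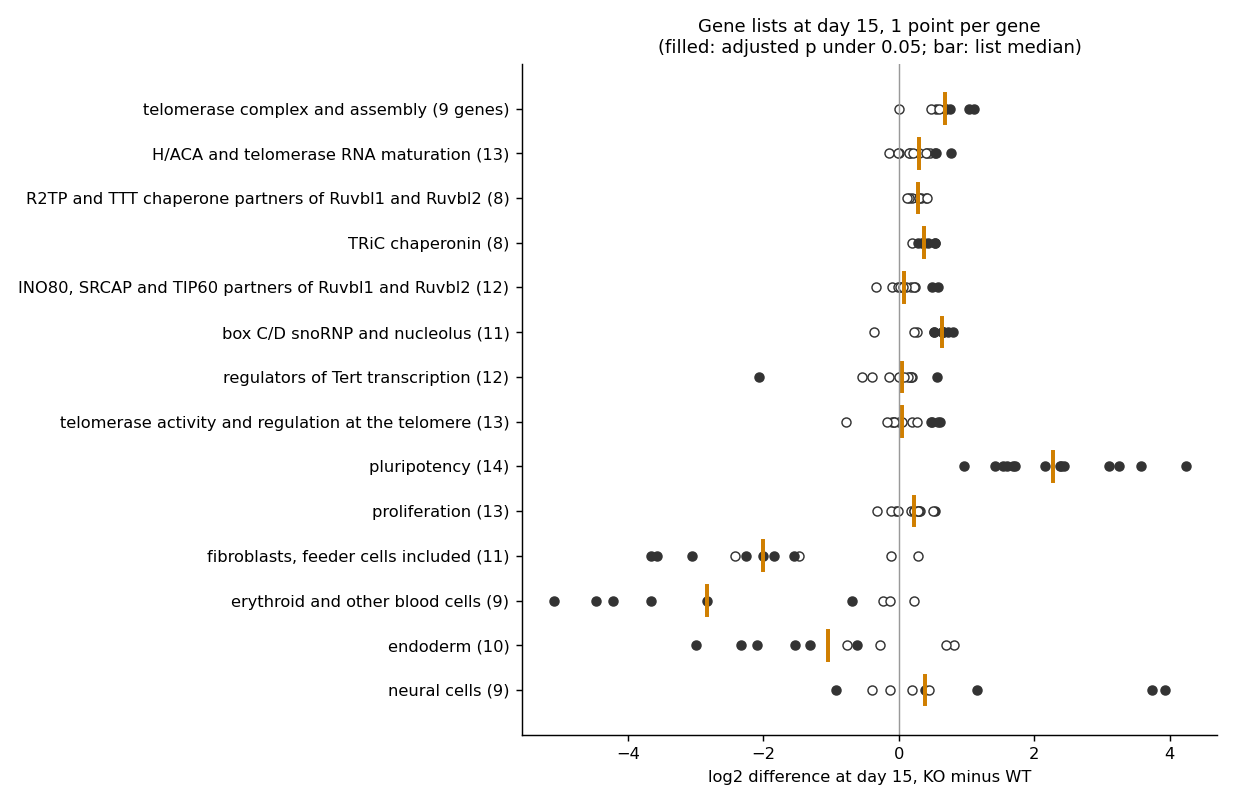
Log2 difference of KO minus WT cells at day 15 for the 9 members and 13 gene lists (rows), 1 point per gene read from its brightest probe set; filled points passed an adjusted p of 0.05 and orange bars are list medians. The members have a median of 0.68, close to the 0.65 of the box C/D and nucleolar list, while pluripotency genes lie at a median of 2.27 and fibroblast genes at -2.01.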

How the data were processed

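Affymetrix mouse oligonucleotide arrays were used as deposited: the authors' file gives 1 linear intensity per probe set and array, and MAS5 is the method in the submitters' processing notes, its version and settings being not given in the sources used here. Arrays of day 0 differ from the others in scale and in the spread of their values, which could alter any comparison of day 0 with later days. Of 45101 probe sets, 64 manufacturer controls were left out. Values under 1 were set to 1, and log2 intensities were fitted with limma 3.58.1 (statmod 1.5.0, R 4.3.3) with a mean for each group, no block for replicates, and moderation that was robust and followed the intensity trend. All p-values are two-sided. The fit was tested on simulated data. Every probe set of the 9 members is described, and a gene is otherwise read from its brightest probe set. Up to 4 genes per list are named, those with the largest difference at day 15 among those called in any comparison, with Myc and Mycn in all cases, and the 5 genes most like Tert and Dkc1. The members and lists were chosen with earlier results of these data known. Promoters are from RefSeq (GRCm38.p6), 250 bases each. The alternatives were quantile normalization, median centring, an offset of 32, moderation without trend or robustness, a fit on brighter probe sets, a block for the replicate number, a fit on the arrays compared alone, the methods' t-test, a 2-fold rule and each array left out in turn. Groups of 2 arrays are too small for an outlier test. Tables were made in pandas 2.3.3 and numpy 2.4.6 and figures in matplotlib 3.10.9, under Python 3.11.15.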

Additional observations from a re-analysis of the deposited data

How the results depend on the processing

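With 2 arrays per group the calls rest on a spread pooled over 6 groups. An offset of 32, quantile normalization, median centring, the brighter probe sets alone and no trend or robust moderation left each count of called members within 1.5 times its value. With a replicate block the counts were 8 at day 15, 10 in WT cells from day 8 to day 15, 3 for the added change from day 0 to day 15 and 0 elsewhere, as without it. Same-numbered samples of different groups correlated between -0.14 and 0.24 in their deviation from the group mean. With groups of 2 this cannot decide whether the numbers pair the samples. With only the arrays compared, 4 changes passed in KO cells, 0 in WT cells and 8 in the added comparison, where 617, 102 and 1483 of all 45037 probe sets passed in the same direction. The methods name a t-test for 2 groups, not for the arrays in particular. After adjustment it gave 0 calls at day 15 and 0 in WT cells. Unadjusted it gave 2 at day 0, 9 at day 15, 8 in KO cells and 3 in WT cells. Over all probe sets it gave 0 at day 15 and 0 in WT cells after adjustment. Its unadjusted calls over all probe sets were 3769 at day 0, 6541 at day 15, 4697 in KO cells and 4770 in WT cells. Without each array in turn the counts ran from 0 to 3 at day 8, 4 to 11 at day 15, 6 to 14 in WT cells, 0 to 9 for the interaction and 0 to 4 for the added comparison, the 11 at day 15 being the counts without either WT day 8 array. A single value with a call turned sign, Dkc1 1438015_at at day 8, from -0.02 to 0.57 without WT replicate 1, while it was -0.62 without WT replicate 2. Over all probe sets, 5807 calls at day 15 became 1720 to 8018 without single arrays, and 7227 in WT cells became 3598 to 9202, or 367 at the fewest under the other limma settings. The cause was not tested.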
